A study of Homo sapiens with 12 samples.

Results

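The 55 genes described here encode the machinery that moves new proteins into and out of the endoplasmic reticulum (ER): the signal recognition particle (SRP) and its receptor, the Sec61 translocon with its partner proteins, the signal peptidase, the oligosaccharyltransferase (OST), the COPII and COPI vesicle coats, and cargo and retrieval receptors. They were taken by symbol from the deposited table of 60666 Ensembl gene IDs, and all 55 were among the 23493 genes with enough reads to be tested. The 6 groups hold 2 RNA-seq libraries each: cells given 1 µM JQ1 for 72 h and cells given its solvent DMSO, in the human multiple myeloma lines RPMI8226, KMS-11 and KMS-12. JQ1 displaces BET bromodomain proteins from acetylated chromatin. All groups carry the label WT for genotype, and JQ1 and DMSO cells of a line share their medium and the volume of DMSO.

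SRP binds the signal sequence of a protein as it leaves the ribosome, and its receptor hands the ribosome to the Sec61 channel. Signal peptidase then removes the signal sequence, OST attaches N-linked glycans to the growing chain, COPII vesicles carry folded cargo to the Golgi, and COPI vesicles bring receptors and escaped ER proteins back. Plasma cells and the myeloma cells derived from them depend on this route because they secrete immunoglobulin.

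Depth was between 15424512 and 27366499 counts per library. The labels do not say whether replicates were separate cultures, so a p-value here reflects no more than the scatter among these libraries, which may be technical. The labels name no spike-in, and a level is therefore a share of the RNA in a library; in bulk samples fewer cells of a kind and less RNA per cell cannot be told apart. Reads of genes at myeloma translocations separated the lines as labelled: MAF had 15368 to 41749 reads in every KMS-11 and RPMI8226 library and at most 2 in the KMS-12 libraries, and FGFR3 had 17205 to 67582 in KMS-11 and at most 2 elsewhere. All 9 plasma cell markers had reads in each group, while the 6 B cell markers together reached no more than 19.2 CPM (read counts scaled to a common library size) in any library.

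Promoter sequences for 48 of the 55 genes were taken from RefSeq (GRCh38.p14, 250 bases before to 50 after each start listed for a gene). A gene counted as holding a motif if the sequence at any of its starts did. Genes with several starts thus had more chances of a match. No entry was given for SEC24D, SPCS1, STT3B, KDELR2, SRPRA, RPN1 or TRAM1. A motif that the choice of members did not use was more frequent among the 48 genes than among all genes in the table. The 8 letters TGACGTGG are known as the unfolded protein response element and are recognised by the ER stress factors ATF6 and XBP1. They occurred on either strand for 11 of the 48 genes (22.9%). The share was 0.927% over the 27305 genes in the table and 1.19% over 11428 protein-coding genes tested. The 11 genes are SRP19; SEC62, SSR3 and SSR4 of the translocon; SEC16A, SEC23A and SEC24A of COPII; COPA, COPB1 and COPB2 of COPI; and the retrieval receptor KDELR3. The windows below show the element in capitals with its flanks for 7 of them, from the translocon and both coats, where most of the 11 lie. Each is written on the strand that reads TGACGTGG.
SSR3 (chr3:156554139-156554186, plus strand): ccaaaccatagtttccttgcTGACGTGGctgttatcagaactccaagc
SSR4 (chrX:153794519-153794566, minus strand): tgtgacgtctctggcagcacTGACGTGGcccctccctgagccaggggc
SEC16A (chr9:136484698-136484745, plus strand): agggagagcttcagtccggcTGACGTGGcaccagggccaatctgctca
SEC24A (chr5:134648586-134648633, plus strand): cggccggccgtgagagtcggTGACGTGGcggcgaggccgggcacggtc
COPA (chr1:160343218-160343265, minus strand): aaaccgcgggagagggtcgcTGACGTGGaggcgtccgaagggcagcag
COPB1 (chr11:14499832-14499879, plus strand): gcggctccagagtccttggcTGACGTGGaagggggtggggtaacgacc
COPB2 (chr3:139389623-139389670, plus strand): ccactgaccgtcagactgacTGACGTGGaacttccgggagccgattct
COPB2 held a second copy, at chr3:139389836-139389843 (plus strand). The shorter core GACGTG, which is part of the element, was present for 27 of the 48 genes (56.3%). It was present for 9.34% of all genes in the table and 12.7% of the tested protein-coding genes. The full ER stress element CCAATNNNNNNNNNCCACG, ER stress element II (ATTGGNCCACG) and the cAMP response element TGACGTCA, searched on both strands, were in 0 of the 48, against 0.149%, 0.123% and 3.66% of the tested protein-coding genes. The CCAAT box, which is part of the ER stress element, was in 22 of 48 (45.8%), against 43.4%. A match describes the letters in the window only; no binding was measured.

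In DMSO the genes were expressed far above the typical gene. Their median level per length of exon was 31.5 CPM per kilobase in KMS-11, 25.9 in KMS-12 cells and 31.1 in RPMI8226, against medians of 4.34, 4.39 and 4.55 CPM per kilobase over 14238 protein-coding genes tested. In KMS-11 38 of the 55 were among the top 10% of protein-coding genes by this measure, in KMS-12 35 and in RPMI8226 40. The highest were RPN2, the ribophorin II subunit of OST, at 248 CPM per kilobase in KMS-11 and 105.5 in KMS-12 cells, and SSR3, the gamma subunit of the translocon-associated protein (TRAP) complex, at 162 CPM per kilobase in RPMI8226. The lowest was KDELR3, a KDEL receptor, at 0.820 CPM per kilobase in KMS-11 and 2.61 in RPMI8226, and SRP19, a protein that helps to assemble SRP, at 1.27 in KMS-12. Above the protein-coding median lay 53 of the 55 in KMS-11, 54 in KMS-12 cells and 53 in RPMI8226.

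**Figure D1:**
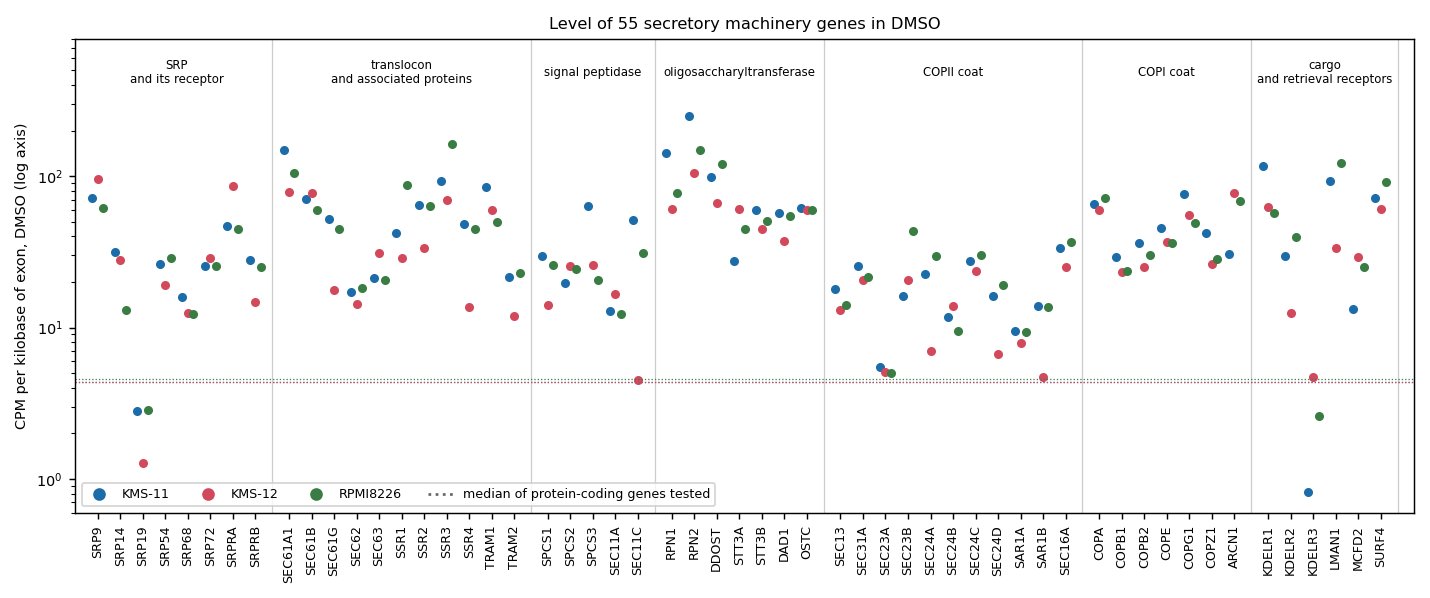
Level of the 55 genes in DMSO by step, as CPM per kilobase of exon on a log axis; each point is the mean of 2 DMSO libraries of a line, and dotted lines mark the median of the protein-coding genes tested. In each line 53 or 54 of the 55 points lie above the dotted line, and the highest is RPN2 in KMS-11 at 248.

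The lines differed at baseline. An F test in edgeR's quasi-likelihood fit, with Benjamini-Hochberg adjustment over all genes tested, found a difference between the DMSO groups for 52 of the 55 genes; 80.2% of all genes tested passed the same test. SRP72, OSTC and SEC23A did not pass it. KMS-11 was higher than KMS-12 for 37 of the genes (32.7% of all genes tested) and lower for 10 (30.2%). Against RPMI8226, KMS-11 was higher for 20 (28.2%) and lower for 13 (30.0%), and KMS-12 was higher for 11 (29.3%) and lower for 29 (33.2%). SEC11C, 1 of 2 catalytic subunits of signal peptidase, stood at 232 ± 16.7 CPM in KMS-11, 20.2 ± 4.64 CPM in KMS-12 cells and 140.1 ± 5.59 CPM in RPMI8226 (SD, n = 2 DMSO libraries each). KMS-11 exceeded KMS-12 by 3.52 on the log2 scale (SE 0.15; edgeR quasi-likelihood, adjusted p by Benjamini-Hochberg = 2.47e-12). Read counts of SEC11C were 3.41 and 2.87 times those of SEC11A, the other catalytic subunit, in the DMSO libraries of KMS-11, and 0.176 and 0.248 times in those of KMS-12. SEC24A, a COPII cargo adaptor, was likewise lower in KMS-12, at 163 ± 20.2 CPM in KMS-11, 50.5 ± 1.32 CPM in KMS-12 cells and 215 ± 12.7 CPM in RPMI8226 (SD, n = 2 each). SSR4, the delta subunit of TRAP, had 223 ± 16.4 CPM, 63.0 ± 2.19 CPM and 205 ± 10.4 CPM in the same order of lines. ARCN1, the delta subunit of COPI, was lowest in KMS-11, with 128 ± 1.75 CPM, 321 ± 5.93 CPM and 285 ± 7.80 CPM.

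With JQ1 most of the genes fell in KMS-11 and RPMI8226, while in KMS-12 more rose than fell under the scaling used; the next paragraph gives how that depends on the scaling. By the edgeR quasi-likelihood test with Benjamini-Hochberg adjustment over all genes, 0 of the 55 rose and 35 fell in KMS-11, where 17.3% of all genes tested rose and 21.2% fell. In RPMI8226 1 rose and 37 fell, beside 13.6% and 18.6% of all genes. In KMS-12 27 rose and 12 fell, beside 20.2% and 25.7% of all genes. The median log2 change was -0.52 in KMS-11, 0.25 in KMS-12 cells and -0.42 in RPMI8226, beside medians over all genes tested of 0, -0.06 and -0.03. In the average of the 3 lines 8 rose and 32 fell (22.3% and 26.7% of all genes). Tested against a fold of 1.5, 18 of the genes were lower in KMS-11 (11.3% of all genes tested) and 7 in RPMI8226 (8.54%). In KMS-12 4 were higher (8.20%), namely SPCS1, STT3B, SEC31A and SEC16A, a count near the share of all genes. A gene that did not pass this stricter test may still have changed by more than 1.5-fold.

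The rises in KMS-12 depend on how its libraries were scaled. The nuclear RNA MALAT1 took 25.7% and 25.8% of the counts in the JQ1 libraries of KMS-12, against 8.06% and 9.01% in its DMSO libraries; in KMS-11 it took 16.5% and 14.5% with JQ1, against 3.98% and 3.61% with DMSO. The changes above use TMM scaling, which centres the bulk of genes. With library size alone the median log2 change of all genes tested was -0.82 in KMS-12, -0.25 in KMS-11 and -0.055 in RPMI8226. In KMS-12 2 of the 55 genes were then higher and 41 lower (4.41% and 54.4% of all genes). Library size without MALAT1 and NEAT1, added after the data were seen, gave 13 higher and 19 lower in KMS-12 (11.8% and 36.3%). In the average of the lines, library size alone gave 0 higher and 49 lower (9.01% and 44.1%). In KMS-12 38 of the 55 lay above the median of all genes with TMM; a change of scaling shifts all genes of a library alike, so that this count says nothing of which scaling to prefer. Each rise in KMS-12 given below is a change under TMM scaling. For a member whose rise there passed the test and is described by its own value, the library-size value is given where it turns the direction. A KMS-12 value that did not pass is likewise a TMM value, and its library-size value is not always given.

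With TMM scaling the summed levels of the plasma cell markers were lower with JQ1 in KMS-11 and RPMI8226 and higher in KMS-12, as the summed members were. The 9 markers summed to 3240 to 4556 CPM with JQ1 against 7473 to 8072 CPM with DMSO in KMS-11, to 4060 to 4104 CPM with JQ1 against 2514 to 2550 CPM with DMSO in KMS-12, and to 3297 to 3392 CPM with JQ1 against 4902 to 5941 CPM with DMSO in RPMI8226. With library size alone both sums were lower with JQ1 in KMS-12 too: the markers had 2972 and 2917 CPM with JQ1 against 3093 and 3137 CPM with DMSO, and the members had 7205 and 7198 CPM with JQ1 against 10270 and 10720 CPM with DMSO. With TMM, of the 9 markers 1 rose and 4 fell in KMS-11 cells, 4 rose and 4 fell in KMS-12 cells, and 0 rose and 5 fell in RPMI8226. In KMS-12 the log2 changes of the 4 that rose were PRDM1 2.14, CD38 1.27, XBP1 0.77 and IRF4 0.75. Those of the 4 that fell were SLAMF7 -4.14, TNFRSF17 -2.49, MZB1 -2.44 and JCHAIN -1.62. IRF4 had the most reads of the markers in the JQ1 libraries of KMS-12, 47036 and 46043, and so weighs most in that sum. JCHAIN had the most in the DMSO libraries of KMS-11 and RPMI8226 and so weighs most in those sums. Its reads were 127770 and 126475 with DMSO and 34881 and 41392 with JQ1 in KMS-11. In RPMI8226 they were 54134 and 50815 with DMSO and 17541 and 17136 with JQ1. The part of the markers in the changes of the members was not tested.

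**Figure D2:**
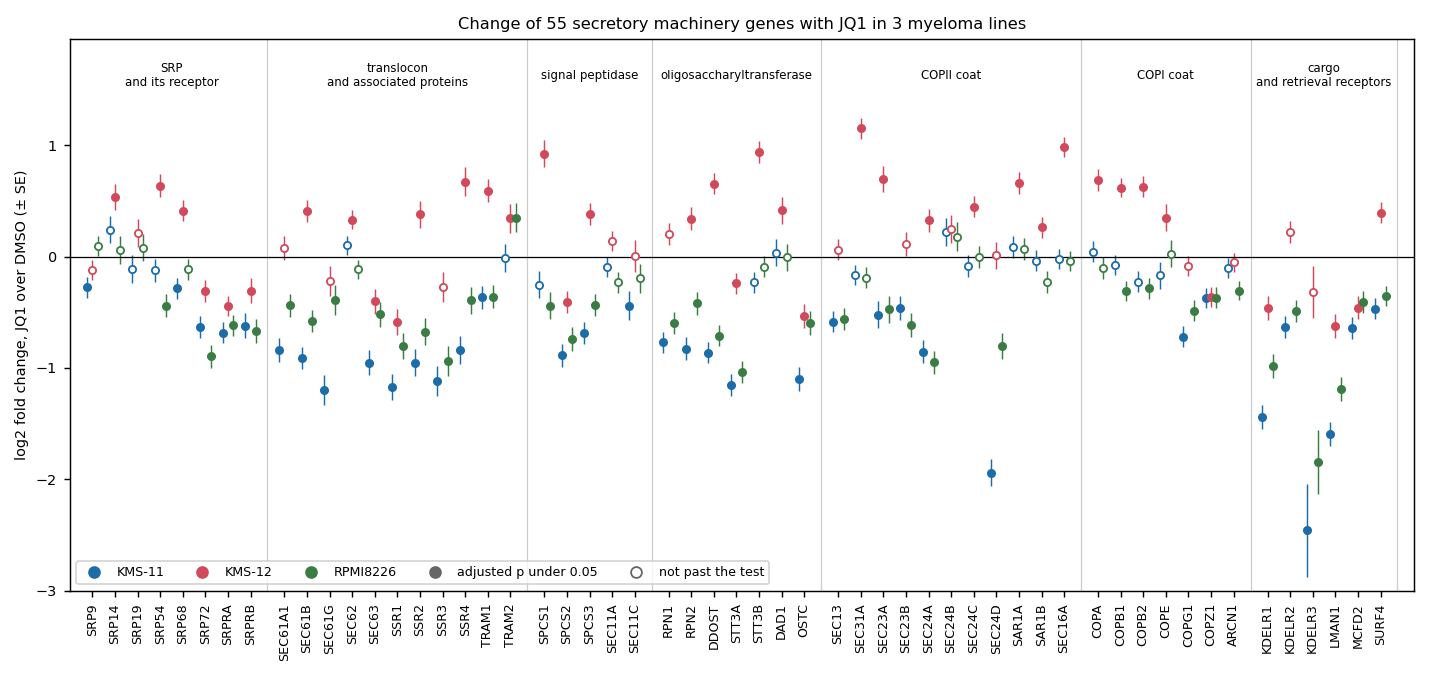
log2 fold change of each gene with JQ1 over DMSO in KMS-11, KMS-12 and RPMI8226, by step, with standard errors; TMM scaling, filled points passed the edgeR test (Benjamini-Hochberg adjusted p under 0.05). KMS-11 and RPMI8226 lie mostly below 0, and KMS-12 lies above them for most genes; with library size alone 4 of the 55 KMS-12 values are above 0.

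Of the 55 genes 12 fell in all 3 lines (21.8%), against 6.37% of all genes tested: SRP72, SRPRA, SRPRB, SEC63, SSR1, SPCS2, STT3A, OSTC, COPZ1, KDELR1, LMAN1 and MCFD2. SRPRA, SSR1, OSTC, KDELR1 and LMAN1 kept all 3 calls when any 1 of the 12 libraries was left out. Another 10 fell in KMS-11 and RPMI8226 and rose in KMS-12 with TMM scaling (18.2%, against 0.817% of all genes): SEC61B, SSR2, SSR4, TRAM1, SPCS3, RPN2, DDOST, SEC23A, SEC24A and SURF4. With library size alone all 10 were below 0 in KMS-12, and SEC61B, SPCS3, DDOST and SURF4 kept their 3 calls under TMM when any 1 library was left out. A further 10 fell in KMS-11 and RPMI8226 and did not pass in KMS-12 (3.15% of all genes). Another 11 rose in KMS-12 cells and were not called in the other lines (6.53%). Whether their response differs between lines is tested below. SRP19, SEC11A and SEC24B passed the test in no line, as did 33.4% of all genes. These patterns use TMM scaling. With library size alone RPN1, SEC13, SEC24D and KDELR2, from the further 10, passed as lower in KMS-12. Of all 55 genes 2 were then higher and 41 lower in that line.

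Some calls in a single line were lost when 1 library was left out. Of the falls, 30 of 35 in KMS-11, 7 of 12 in KMS-12 cells and 25 of 37 in RPMI8226 were still called when any 1 of the 12 libraries was left out, and of the rises in KMS-12 19 of 27 were. The calls lost in at least 1 such fit were the falls of SRP9, SRP68, TRAM1, SEC11C and SEC23A in KMS-11 (adjusted p between 0.0503 and 0.176 in edgeR). In KMS-12 they were the falls of SRP72, SRPRB, SEC63, SPCS2 and STT3A (between 0.0537 and 0.282) and the rises of SEC62, SSR2, TRAM2, RPN2, DAD1, SEC24A, SAR1B and COPE (between 0.0525 and 0.251). In RPMI8226 they were the falls of SRP54, SEC61G, SSR4, TRAM1, SPCS1, RPN2, SEC23A, COPB1, COPB2, COPZ1, ARCN1 and MCFD2 (between 0.0539 and 0.339) and the rise of TRAM2 (between 0.0657 and 0.363).

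The response itself differed between the lines for 41 of the 55 genes, beside 30.1% of all genes tested (F test in the edgeR fit, Benjamini-Hochberg adjusted p under 0.05). KMS-12 responded more positively than KMS-11 for 39 genes (10.1% of all genes) and less for 0 (9.87%). RPMI8226 responded more negatively than KMS-12 for 37 (11.1%) and more positively for 0 (12.3%). RPMI8226 and KMS-11 were closer, with 3 genes more positive in RPMI8226 (6.70%), SEC24D, SEC61G and OSTC, and 0 more negative (4.72%). These contrasts share libraries with one another, and they depend on the scaling. With library size alone KMS-12 responded more positively than KMS-11 for 20 genes (4.41% of all genes) and less for 4 (28.1%), RPMI8226 more positively than KMS-11 for 19 (12.5%) and less for 0 (2.88%), and RPMI8226 more positively than KMS-12 for 18 (40.4%) and less for 5 (3.24%). Library size without MALAT1 and NEAT1 gave 30 more (6.27%) and 0 less (17.3%) for KMS-12 over KMS-11, 6 (7.66%) and 0 (4.07%) for RPMI8226 over KMS-11, and 1 (21.9%) and 23 (6.25%) for RPMI8226 over KMS-12. The median of the members for KMS-12 minus KMS-11 was 0.69, beside -0.03 for all genes, with TMM.

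SRP and its receptor gave 0 rises and 5 falls among 8 genes in KMS-11 cells, 3 and 3 in KMS-12 cells (0 and 6 with library size alone), and 0 and 4 in RPMI8226. The counts per step here and below read against the shares of all genes tested that rose and fell. These were 17.3% and 21.2% in KMS-11, 20.2% and 25.7% in KMS-12 cells, and 13.6% and 18.6% in RPMI8226. With library size alone they were 4.41% and 54.4% in KMS-12. SRP72, a protein that with SRP68 clamps the RNA of the particle, had 108 and 103 CPM with JQ1 against 174 and 153 CPM with DMSO in KMS-11 cells, 148 and 151 CPM with JQ1 against 187 and 183 CPM with DMSO in KMS-12, and 80.7 and 94.7 CPM with JQ1 against 154 and 173 CPM with DMSO in RPMI8226. The JQ1 libraries were below the DMSO libraries in every line, and the log2 change averaged -0.61 (SE 0.059; edgeR quasi-likelihood, adjusted p by Benjamini-Hochberg = 8.96e-08). In KMS-12 the fall of SRP72 was not called when any 1 of the 4 libraries of that line was left out (adjusted p between 0.0627 and 0.106 in edgeR). SRPRA (ENSG00000182934; chromosome 11, 126262919 to 126269144, minus strand, GRCh38), the alpha subunit of the SRP receptor, had 121 and 124 CPM with JQ1 against 211 and 182 CPM with DMSO in KMS-11 cells, 263 and 267 CPM with JQ1 against 345 and 377 CPM with DMSO in KMS-12, and 120.4 and 124 CPM with JQ1 against 186 and 188 CPM with DMSO in RPMI8226. It also stood lower with JQ1 in every library, with an average of -0.58 (SE 0.054; edgeR quasi-likelihood, adjusted p by Benjamini-Hochberg = 6.38e-08). SRPRB, the membrane-anchoring beta subunit, fell by 0.53 (SE 0.063) in the average; in KMS-12 the call was lost without JQ1 replicate 1, JQ1 replicate 2 or DMSO replicate 2 (adjusted p between 0.0850 and 0.216 in edgeR). SRP68 fell by 0.29 (SE 0.092) in KMS-11 and rose by 0.41 (SE 0.092) in KMS-12, where it was -0.36 with library size alone. SRP54, the GTPase that holds the signal sequence, rose by 0.64 (SE 0.10) in KMS-12 (-0.13 with library size alone) and fell by 0.44 (SE 0.10) in RPMI8226. Of the pair that slows translation, SRP9 fell by 0.28 (SE 0.092) in KMS-11 and SRP14 rose by 0.54 (SE 0.12) in KMS-12 (-0.24 with library size alone).

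SRP is built on 7SL RNA, for which the table holds 3 genes. RN7SL1 had 15240 and 17410 CPM with JQ1 against 9759 and 8533 CPM with DMSO in KMS-11 cells, 4438 and 6560 CPM with JQ1 against 4802 and 3376 CPM with DMSO in KMS-12, and 8161 and 7340 CPM with JQ1 against 5654 and 5038 CPM with DMSO in RPMI8226. The groups overlapped in KMS-12 cells and stood apart in the other lines, and the log2 change averaged 0.60 (SE 0.11; edgeR quasi-likelihood, adjusted p by Benjamini-Hochberg = 2.05e-04). It was 0.25 and did not pass when scaled by library size alone. RN7SL3 averaged 0.32 (SE 0.093), or -0.034 with library size alone, and RN7SL2 had 0 reads in all 12 libraries. Their sequences are 96.0% to 98.3% identical, so how reads were shared between these genes is uncertain.

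Most translocon genes fell in KMS-11 and RPMI8226. Of the 11 genes 9 fell and 0 rose in KMS-11 cells, 6 rose and 2 fell in KMS-12 cells (0 and 9 with library size alone), and 1 rose and 9 fell in RPMI8226. Summed over the step, the level was 1773 and 1977 CPM with JQ1 against 3482 and 2983 CPM with DMSO in KMS-11 and 2292 and 2633 CPM with JQ1 against 3564 and 3804 CPM with DMSO in RPMI8226. SSR1 (ENSG00000124783; chromosome 6, 7268306 to 7347446, minus strand, GRCh38), the alpha subunit of the translocon-associated protein complex TRAP, had 200.2 and 227 CPM with JQ1 against 507 and 455 CPM with DMSO in KMS-11 cells, 214 and 223 CPM with JQ1 against 321 and 337 CPM with DMSO in KMS-12, and 504 and 631 CPM with JQ1 against 934 and 1045 CPM with DMSO in RPMI8226. No JQ1 library reached a DMSO library of its line, and the average log2 change was -0.85 (SE 0.067; edgeR quasi-likelihood, adjusted p by Benjamini-Hochberg = 6.62e-09).

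The 4 TRAP subunits differed in KMS-12. SSR1 fell by 0.59 (SE 0.12) there and SSR3 had -0.27 (SE 0.13), not past the test, while SSR2 rose by 0.38 (SE 0.12) and SSR4 rose by 0.67 (SE 0.13) with TMM scaling, or stood at -0.39 and -0.096 with library size alone. The SSR2 call was lost without either JQ1 library or DMSO replicate 1 of that line (adjusted p between 0.0636 and 0.121 in edgeR). SSR4 had 106 and 143 CPM with JQ1 against 235 and 212 CPM with DMSO in KMS-11, 93.9 and 107 CPM with JQ1 against 64.6 and 61.5 CPM with DMSO in KMS-12, and 146 and 166 CPM with JQ1 against 197 and 212 CPM with DMSO in RPMI8226. Its groups stood apart in each line, with KMS-12 opposite to the others. The RPMI8226 call was lost without JQ1 replicate 1 or DMSO replicate 2 of that line (adjusted p of 0.173 and 0.134 in edgeR). SSR4 overlaps IDH3G on the opposite strand, which had 34.8% as many reads. SEC61B, the beta subunit of the channel, had 44.2 and 45.9 CPM with JQ1 against 88.0 and 81.2 CPM with DMSO in KMS-11 cells, 118 and 126 CPM with JQ1 against 87.5 and 95.9 CPM with DMSO in KMS-12, and 44.5 and 50.3 CPM with JQ1 against 67.2 and 74.3 CPM with DMSO in RPMI8226. Its log2 change was -0.91 (SE 0.10), 0.41 (SE 0.099) and -0.58 (SE 0.10) in those lines, and -0.36 in KMS-12 with library size alone. SEC61A1, the pore subunit, fell by 0.84 (SE 0.11) in KMS-11 and by 0.44 (SE 0.11) in RPMI8226. SEC61G, the gamma subunit, fell by 1.20 (SE 0.13) in KMS-11 and by 0.39 (SE 0.13) in RPMI8226, where its value was -0.21 without JQ1 replicate 1 and -0.29 without DMSO replicate 2 (adjusted p of 0.339 and 0.225 in edgeR). The responses of these lines differed by 0.81 (SE 0.19; edgeR quasi-likelihood, adjusted p by Benjamini-Hochberg = 0.00788). SEC63, which brings the chaperone BiP to the channel, fell in each line, with an average of -0.63 (SE 0.065). Its KMS-12 call was lost without JQ1 replicate 1 or DMSO replicate 2 of that line (adjusted p of 0.0682 and 0.0679 in edgeR). Its partner SEC62 rose by 0.33 (SE 0.086) in KMS-12 (-0.44 with library size alone). TRAM2 was the single member that rose in RPMI8226, by 0.35 (SE 0.13; edgeR quasi-likelihood, adjusted p by Benjamini-Hochberg = 0.0490). RLE scaling, DESeq2 and limma-voom made no such call, and it stood at 0.21 without JQ1 replicate 1 of that line (adjusted p = 0.363 in edgeR). TRAM1, a related protein beside the channel, fell by 0.36 (SE 0.10) in the same line and rose by 0.59 (SE 0.10) in KMS-12 (-0.18 with library size alone). In KMS-11 TRAM1 fell by 0.36, or stood at -0.20 without DMSO replicate 1 of that line (adjusted p = 0.115 in edgeR).

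Signal peptidase subunits also divided. SPCS2, an accessory subunit, had 30.3 and 33.2 CPM with JQ1 against 61.1 and 56.2 CPM with DMSO in KMS-11, 59.3 and 55.6 CPM with JQ1 against 77.4 and 75.2 CPM with DMSO in KMS-12, and 42.6 and 44.8 CPM with JQ1 against 67.8 and 78.2 CPM with DMSO in RPMI8226. It fell in every line, with an average log2 change of -0.68 (SE 0.06; edgeR quasi-likelihood, adjusted p by Benjamini-Hochberg = 3.25e-08). Its KMS-12 call was lost without JQ1 replicate 2 of that line (adjusted p of 0.0542 in edgeR). SPCS1, another small accessory subunit, had 112 and 154 CPM with JQ1 against 155 and 162 CPM with DMSO in KMS-11, 140.1 and 146 CPM with JQ1 against 76.8 and 74.0 CPM with DMSO in KMS-12, and 93.2 and 111 CPM with JQ1 against 141 and 137 CPM with DMSO in RPMI8226. With TMM it rose by 0.93 (SE 0.12; edgeR quasi-likelihood, adjusted p by Benjamini-Hochberg = 8.80e-06) in KMS-12 cells and fell by 0.44 (SE 0.12) in RPMI8226. With library size alone SPCS1 stood at 0.15 in KMS-12 and did not pass the test. SPCS1 overlaps NEK4 and GLT8D1 on the opposite strand, with 40.8% and 40.1% as many reads. SPCS3, which the enzyme needs for activity, fell by 0.69 (SE 0.098) in KMS-11 and by 0.44 (SE 0.10) in RPMI8226, and rose by 0.38 (SE 0.098) in KMS-12 (-0.39 with library size alone). Of the catalytic pair, SEC11A passed in no line and SEC11C fell by 0.44 (SE 0.13) in KMS-11.

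The oligosaccharyltransferase exists in forms built around either STT3A, which glycosylates proteins as they enter the channel, or STT3B, which also acts on sites that STT3A skipped. RPN1, RPN2, DDOST and DAD1 are shared subunits, and OSTC belongs to the STT3A form. STT3A (ENSG00000134910; chromosome 11, 125591712 to 125625215, plus strand, GRCh38) had 86.8 and 97.0 CPM with JQ1 against 217 and 191 CPM with DMSO in KMS-11 cells, 378 and 381 CPM with JQ1 against 431 and 466 CPM with DMSO in KMS-12, and 159 and 166 CPM with JQ1 against 339 and 327 CPM with DMSO in RPMI8226. STT3B (ENSG00000163527; chromosome 3, 31532638 to 31637622, plus strand, GRCh38) had 253 and 262 CPM with JQ1 against 316 and 287 CPM with DMSO in KMS-11 cells, 435 and 424 CPM with JQ1 against 217 and 231 CPM with DMSO in KMS-12, and 223 and 255 CPM with JQ1 against 246 and 262 CPM with DMSO in RPMI8226. STT3A was below DMSO in each line; STT3B was above DMSO in KMS-12, below it in KMS-11 and overlapped it in RPMI8226.

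The log2 change of STT3A was -1.15 (SE 0.098) in KMS-11, -0.24 (SE 0.095) in KMS-12 cells and -1.04 (SE 0.097) in RPMI8226. That of STT3B was -0.23 (SE 0.096), 0.94 (SE 0.097) and -0.091 (SE 0.096) in the same order, and with TMM it passed the test only in KMS-12. With library size alone STT3B stood at 0.17 in KMS-12 and did not pass. The KMS-12 fall of STT3A was not called when any 1 of the 4 KMS-12 libraries was left out (adjusted p between 0.0683 and 0.282 in edgeR), nor when any RPMI8226 library was (between 0.0537 and 0.0673). A ratio of 2 genes within a library needs no scaling. The count ratio of STT3A to STT3B was 0.344 and 0.371 with JQ1 against 0.685 and 0.666 with DMSO in KMS-11, 0.869 and 0.897 with JQ1 against 1.99 and 2.02 with DMSO in KMS-12, and 0.716 and 0.650 with JQ1 against 1.38 and 1.25 with DMSO in RPMI8226. It was thus 1.89-fold, 2.27-fold and 1.92-fold lower with JQ1, without overlap in any line; the ratio was not tested.

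OSTC fell by 1.10 (SE 0.11) in KMS-11, by 0.53 (SE 0.11) in KMS-12 cells and by 0.60 (SE 0.11) in RPMI8226. TMEM258, another small OST subunit, outside the 55, had 24.7 and 26.0 CPM with JQ1 against 71.5 and 64.5 CPM with DMSO in KMS-11, 30.8 and 35.6 CPM with JQ1 against 53.0 and 51.6 CPM with DMSO in KMS-12, and 55.9 and 60.5 CPM with JQ1 against 127 and 114 CPM with DMSO in RPMI8226. It also fell in every line, with an average of -1.04 (SE 0.062). Of the shared subunits DDOST (ENSG00000244038; chromosome 1, 20651767 to 20661544, minus strand, GRCh38) had 144 and 154 CPM with JQ1 against 267 and 273 CPM with DMSO in KMS-11 cells, 276 and 291 CPM with JQ1 against 183 and 177 CPM with DMSO in KMS-12, and 188 and 213 CPM with JQ1 against 331 and 323 CPM with DMSO in RPMI8226. The groups did not overlap in any line and KMS-12 was opposite to the others. Its log2 change there was 0.65 (SE 0.092), or -0.12 with library size alone. The response of KMS-12 exceeded that of KMS-11 by 1.52 (SE 0.13; edgeR quasi-likelihood, adjusted p by Benjamini-Hochberg = 2.29e-07). RPN1 fell by 0.77 (SE 0.096) and RPN2 fell by 0.83 (SE 0.10) in KMS-11, and DAD1 rose by 0.42 (SE 0.12) in KMS-12 (-0.35 with library size alone). RPN2 rose by 0.34 (SE 0.10) in KMS-12 (-0.43 with library size alone), a call lost without either JQ1 library or DMSO replicate 2 of that line (adjusted p between 0.0525 and 0.0825 in edgeR).

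**Figure D3:**
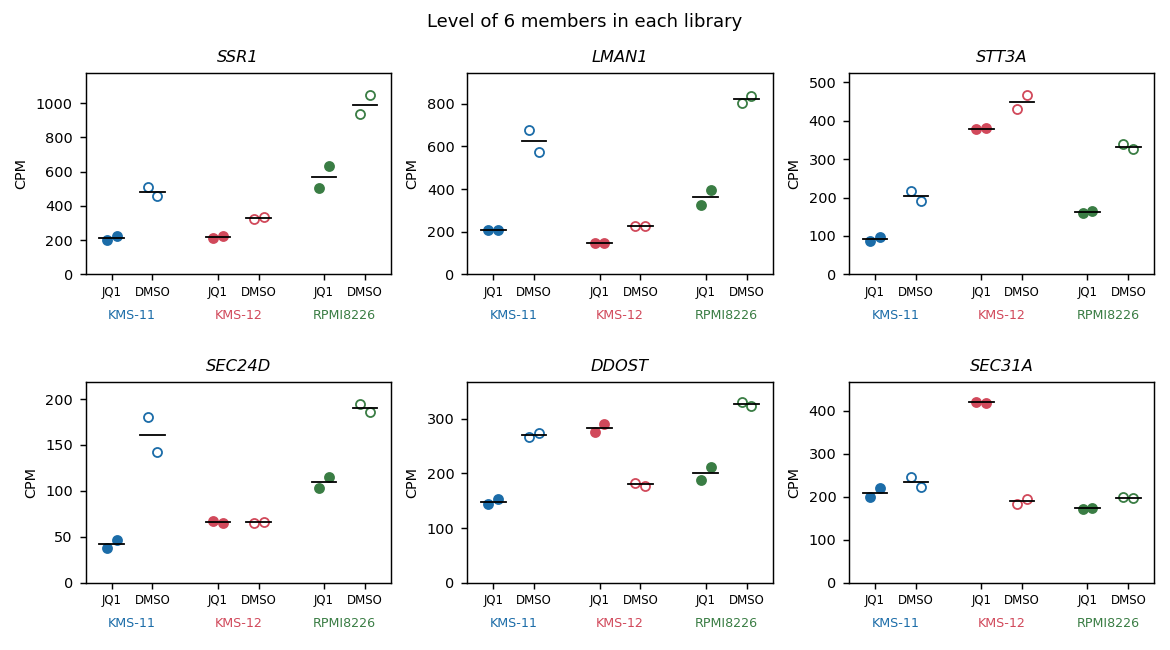
CPM (TMM-scaled) of 6 genes in each library, JQ1 filled and DMSO open, with bars at group means. SSR1, LMAN1 and STT3A are lower with JQ1 in every line, SEC24D is lower in KMS-11 and RPMI8226, DDOST is lower in KMS-11 and RPMI8226 and higher in KMS-12, where library size alone turns its direction, and SEC31A is higher in KMS-12 under either scaling.

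The COPII coat had the highest ratio of summed levels in KMS-12 of the 7 steps, 1.59 with JQ1 over DMSO under TMM scaling and 0.931 with library size alone, when it had 1232 and 1216 CPM with JQ1 against 1290 and 1339 CPM with DMSO. The GTPases SAR1A and SAR1B start the coat, SEC23 and SEC24 proteins form the inner layer that selects cargo, SEC13 and SEC31A form the outer cage, and SEC16A organises ER exit sites. In KMS-12 7 of the 11 genes rose and 0 fell (2 and 7 with library size alone). In each of KMS-11 and RPMI8226 5 fell and 0 rose. The step summed to 1196 and 1309 CPM with JQ1 against 1550 and 1529 CPM with DMSO in KMS-11 cells, 1702 and 1692 CPM with JQ1 against 1048 and 1088 CPM with DMSO in KMS-12, and 1352 and 1400 CPM with JQ1 against 1749 and 1672 CPM with DMSO in RPMI8226.

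SEC31A (ENSG00000138674; chromosome 4, 82818661 to 82901166, minus strand, GRCh38) had 199 and 220 CPM with JQ1 against 246 and 223 CPM with DMSO in KMS-11 cells, 421 and 419 CPM with JQ1 against 183 and 195 CPM with DMSO in KMS-12, and 172 and 175 CPM with JQ1 against 199 and 197 CPM with DMSO in RPMI8226. It rose by 1.15 (SE 0.092) in KMS-12 (edgeR quasi-likelihood, adjusted p by Benjamini-Hochberg = 1.93e-08) and by 0.38 with library size alone, which it also passed. SEC31A overlaps THAP9-AS1 on the same strand, with 23.4% as many reads. SEC16A (ENSG00000148396; chromosome 9, 136440096 to 136483759, minus strand, GRCh38) had 496 and 499 CPM with JQ1 against 248 and 256 CPM with DMSO in KMS-12. It rose by 0.98 (SE 0.09) there and by 0.21 with library size alone, past the test under both. In KMS-11 and RPMI8226 neither gene passed: SEC31A had -0.17 (SE 0.091) and -0.19 (SE 0.092), and SEC16A had -0.02 (SE 0.089) and -0.039 (SE 0.089). SEC13, the partner of SEC31A in the cage, had 0.06 (SE 0.095) in KMS-12 cells, or -0.71 with library size alone, which passed the test. It fell by 0.59 (SE 0.095) in KMS-11 and by 0.56 (SE 0.096) in RPMI8226.

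The 4 SEC24 adaptors differed among themselves. SEC24D (ENSG00000150961; chromosome 4, 118722823 to 118838683, minus strand, GRCh38) had 37.8 and 46.2 CPM with JQ1 against 180.2 and 142 CPM with DMSO in KMS-11, 67.4 and 65.5 CPM with JQ1 against 65.6 and 66.4 CPM with DMSO in KMS-12, and 103 and 116 CPM with JQ1 against 195 and 186 CPM with DMSO in RPMI8226. The groups overlapped in KMS-12 cells and stood apart in the other lines. Its log2 change was -1.94 (SE 0.12), 0.01 (SE 0.12) and -0.80 (SE 0.12), and the responses differed between the lines (edgeR quasi-likelihood, adjusted p by Benjamini-Hochberg = 5.33e-07). With library size alone SEC24D stood at -0.76 in KMS-12 and passed the test. SEC24C, of the same subfamily, had -0.086 (SE 0.096) in KMS-11 and -0.003 (SE 0.096) in RPMI8226. The count ratio of SEC24D to SEC24C was 0.284 and 0.324 with JQ1 against 1.34 and 0.902 with DMSO in KMS-11, 0.391 and 0.386 with JQ1 against 0.534 and 0.518 with DMSO in KMS-12, and 0.627 and 0.732 with JQ1 against 1.15 and 1.21 with DMSO in RPMI8226, which is 3.62-fold, 1.36-fold and 1.74-fold lower with JQ1. SEC24A fell by 0.85 (SE 0.10) in KMS-11 and by 0.95 (SE 0.10) in RPMI8226, and rose by 0.33 (SE 0.10) in KMS-12 (-0.44 with library size alone), a call lost without replicate 1 of either KMS-12 group (adjusted p of 0.109 and 0.0990 in edgeR). SEC24B passed in no line. The ratio of SEC24A to SEC24B was 2.12-fold lower in KMS-11 and 2.18-fold lower in RPMI8226, and its groups overlapped in KMS-12.

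SAR1B lies head to head with SEC24A on chromosome 5, where their annotated starts are 482 bases apart and the genes overlap on opposite strands. SAR1B had -0.037 (SE 0.094) in KMS-11 and -0.23 (SE 0.095) in RPMI8226, not past the test. In KMS-12 it rose by 0.26 (SE 0.097), or stood at -0.51 with library size alone, and that call was lost without either JQ1 library or DMSO replicate 1 of the line (adjusted p between 0.0764 and 0.251 in edgeR). SAR1A rose by 0.66 (SE 0.099) in KMS-12 (-0.11 with library size alone). SEC23A had 75.0 and 72.3 CPM with JQ1 against 43.9 and 46.9 CPM with DMSO in KMS-12, and it fell by 0.52 (SE 0.12) in KMS-11 and by 0.48 (SE 0.12) in RPMI8226. Its KMS-12 value was -0.074 with library size alone. The falls of SEC23A were lost without JQ1 replicate 1 of KMS-11 (adjusted p = 0.0529 in edgeR) and without replicate 1 of either RPMI8226 group (0.0948 and 0.0630). SEC23B, its paralogue, fell by 0.46 (SE 0.11) in KMS-11 and by 0.61 (SE 0.11) in RPMI8226, and had 0.11 (SE 0.11) in KMS-12. Without DMSO replicate 1 of KMS-11 its value there was -0.28, still past the test.

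**Figure D4:**
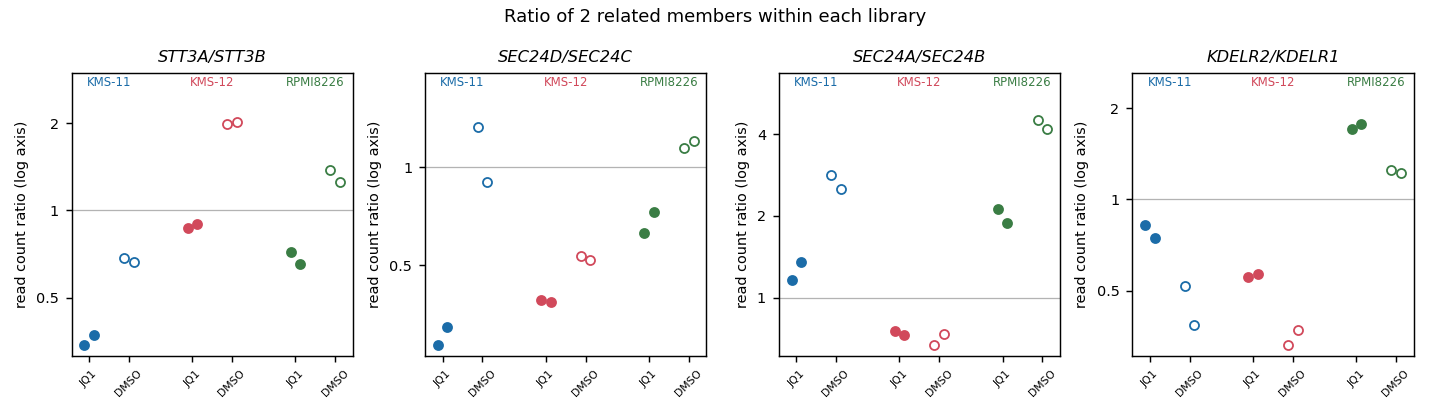
Read count ratio of 2 related genes within each library, on log axes, JQ1 filled and DMSO open. STT3A relative to STT3B and SEC24D relative to SEC24C are lower with JQ1 in all 3 lines, SEC24A relative to SEC24B is lower in KMS-11 and RPMI8226, and KDELR2 relative to KDELR1 is higher in all 3 lines.

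The COPI coat, which forms on Golgi membranes, gave 0 rises and 2 falls among its 7 genes in KMS-11 cells, 4 rises and 1 fall in KMS-12 cells (0 and 4 with library size alone), and 0 rises and 5 falls in RPMI8226. The falls in KMS-11, 28.6% of the step, were near the share of all genes tested, 21.2%. The 4 falls of 7 in KMS-12 with library size alone were also near that of all genes, 54.4%. COPA, the alpha subunit, had 520.3 and 525 CPM with JQ1 against 501 and 513 CPM with DMSO in KMS-11 cells, 753 and 722 CPM with JQ1 against 453 and 465 CPM with DMSO in KMS-12, and 474 and 558 CPM with JQ1 against 558 and 549.8 CPM with DMSO in RPMI8226. It rose by 0.69 (SE 0.098) in KMS-12 (-0.085 with library size alone), and its groups overlapped in RPMI8226. COPA overlaps NCSTN on the opposite strand, with 30.2% as many reads. COPB1, the beta subunit, rose by 0.62 (SE 0.087) in KMS-12 (-0.15 with library size alone) and fell by 0.31 (SE 0.088) in RPMI8226. COPB2, the beta prime subunit, rose by 0.63 (SE 0.093) in KMS-12 (-0.14 with library size alone) and fell by 0.29 (SE 0.093) in RPMI8226. COPG1, a gamma subunit, had 195 and 215 CPM with JQ1 against 345 and 330.1 CPM with DMSO in KMS-11 and 146 and 164 CPM with JQ1 against 213 and 219 CPM with DMSO in RPMI8226. It fell by 0.72 (SE 0.094) in KMS-11 and by 0.49 (SE 0.094) in RPMI8226. COPZ1, the zeta subunit that pairs with gamma, fell by 0.37 (SE 0.092) in KMS-11, by 0.36 (SE 0.092) in KMS-12 cells and by 0.37 (SE 0.093) in RPMI8226. The RPMI8226 call was lost without replicate 1 of either group (adjusted p of 0.0799 and 0.0675 in edgeR). Those of COPB1, COPB2 and ARCN1 are likewise among the lost ones listed above. ARCN1 fell by 0.31 (SE 0.088) in RPMI8226 and COPE, the epsilon subunit, rose by 0.35 (SE 0.12) in KMS-12 (-0.42 with library size alone).

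The cargo and retrieval receptors had the lowest ratio of summed levels of the 7 steps in KMS-11 and RPMI8226, 0.458 and 0.571 with JQ1 over DMSO. All 6 fell in KMS-11 and in RPMI8226; in KMS-12 3 fell and SURF4 rose (6 fell with library size alone). Together they had 590.1 and 631 CPM with JQ1 against 1385 and 1285 CPM with DMSO in KMS-11 cells, 715 and 727 CPM with JQ1 against 820 and 811 CPM with DMSO in KMS-12, and 852 and 954 CPM with JQ1 against 1572 and 1593 CPM with DMSO in RPMI8226. LMAN1 (ENSG00000074695; chromosome 18, 59327823 to 59359962, minus strand, GRCh38), the lectin ERGIC-53 that carries glycoproteins out of the ER, had 208 and 207 CPM with JQ1 against 675 and 574 CPM with DMSO in KMS-11 cells, 149 and 147 CPM with JQ1 against 229 and 228 CPM with DMSO in KMS-12, and 325 and 396 CPM with JQ1 against 804 and 839 CPM with DMSO in RPMI8226. The groups stood apart in every line. LMAN1 had the smallest adjusted p of the 55 in the average of the lines, with a log2 change of -1.14 (SE 0.063; edgeR quasi-likelihood, adjusted p by Benjamini-Hochberg = 8.19e-11), and -1.59 (SE 0.11), -0.63 (SE 0.11) and -1.19 (SE 0.11) in KMS-11, KMS-12 and RPMI8226. MCFD2, which with LMAN1 forms the receptor for coagulation factors, fell by 0.64 (SE 0.10) in KMS-11, by 0.46 (SE 0.10) in KMS-12 cells and by 0.41 (SE 0.10) in RPMI8226. It overlaps TTC7A on the opposite strand, with 73.2% as many reads. SURF4, a receptor for soluble cargo, fell by 0.47 (SE 0.092) in KMS-11 and by 0.35 (SE 0.092) in RPMI8226, and rose by 0.40 (SE 0.092) in KMS-12 (-0.38 with library size alone).

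The KDEL receptors return escaped ER chaperones. KDELR1 (ENSG00000105438; chromosome 19, 48382570 to 48391553, minus strand, GRCh38) had 89.4 and 105 CPM with JQ1 against 243 and 284 CPM with DMSO in KMS-11 cells, 102 and 105 CPM with JQ1 against 152 and 131 CPM with DMSO in KMS-12, and 64.8 and 65.5 CPM with JQ1 against 135 and 122 CPM with DMSO in RPMI8226. It fell by 1.44 (SE 0.11) in KMS-11, by 0.46 (SE 0.11) in KMS-12 cells and by 0.98 (SE 0.11) in RPMI8226. KDELR2 fell by 0.64 (SE 0.099) in KMS-11 and by 0.49 (SE 0.098) in RPMI8226, and had 0.22 (SE 0.10) in KMS-12 (-0.55 with library size alone). The count ratio of KDELR2 to KDELR1 was 0.823 and 0.747 with JQ1 against 0.518 and 0.386 with DMSO in KMS-11, 0.555 and 0.567 with JQ1 against 0.331 and 0.372 with DMSO in KMS-12, and 1.71 and 1.78 with JQ1 against 1.25 and 1.22 with DMSO in RPMI8226. It was 1.75-fold, 1.60-fold and 1.41-fold higher with JQ1, without overlap in any line. KDELR2 overlaps DAGLB on the same strand, with 26.5% as many reads. KDELR3 had few reads, 5 and 6 with JQ1 against 45 and 33 with DMSO in KMS-11 cells, 149 and 133 with JQ1 against 266 and 238 with DMSO in KMS-12, and 38 and 16 with JQ1 against 103 and 120 with DMSO in RPMI8226. Its fitted log2 change was -2.46 (SE 0.42) in KMS-11, -0.32 (SE 0.24) in KMS-12 cells and -1.84 (SE 0.29) in RPMI8226. KDELR3 overlaps DDX17 on the opposite strand, which had 24975% as many reads, and the sources used here do not say whether counting used the strand, so its counts are uncertain. Of the 55 genes 35 overlap another gene on the opposite strand, and 20 overlap a gene on either strand with over 5% as many reads. SRP19 overlaps REEP5 with 299% as many reads and SRPRA overlaps FOXRED1 with 24.5%, both on the opposite strand.

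The promoters with the TGACGTGG element shown above can be set beside the responses. In KMS-12 8 of the 11 genes with it rose and 0 fell, with a median log2 change of 0.62; of the 37 without it 16 rose and 11 fell, with a median of 0.11. In KMS-11 0 rose and 5 fell of the 11, with a median of -0.23, and 0 rose and 25 fell of the 37, with a median of -0.59. In RPMI8226 0 rose and 7 fell of the 11, with a median of -0.31, and 1 rose and 24 fell of the 37, with a median of -0.42. For the shorter core GACGTG the sets were closer in KMS-12. There 14 of the 27 genes with it rose and 5 fell, with a median of 0.33. Of the 21 without it 10 rose and 6 fell, with a median of 0.25. With and without the core, the medians were -0.37 and -0.63 in KMS-11, and -0.39 and -0.42 in RPMI8226. These counts use TMM scaling, and library size alone moves every KMS-12 value down. Differences between genes with and without a motif were not tested.

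Other genes of the pathway, from lists written with earlier results of these data known, give the surroundings; their KMS-12 counts use TMM scaling too. Each pair of counts reads against the shares of all genes tested that rose and fell, 17.3% and 21.2% in KMS-11, 20.2% and 25.7% in KMS-12 cells, and 13.6% and 18.6% in RPMI8226. Of 13 other translocon and OST subunits 4 rose and 2 fell in KMS-11 cells, 8 and 2 in KMS-12 cells, and 3 and 3 in RPMI8226. TMCO1, an ER calcium channel found at the translocon, rose in each line, with an average of 0.54 (SE 0.051). It stood at 0.13 in KMS-12 and did not pass there when scaled by library size alone. Of 28 genes that assemble the oligosaccharide that OST transfers, 5 rose and 16 fell in KMS-11 cells, 6 and 10 in KMS-12 cells, and 3 and 13 in RPMI8226. ALG9, a mannosyltransferase of that route, had 18.5 and 17.0 CPM with JQ1 against 47.1 and 48.9 CPM with DMSO in KMS-12 cells and fell by 1.44 (SE 0.13) there, and ALG10B, a glucosyltransferase, fell by 1.07 (SE 0.09) in the average. Of 11 genes of N-glycan trimming and the calnexin cycle 1 rose and 6 fell in KMS-11 cells, 9 and 0 in KMS-12 cells, and 1 and 2 in RPMI8226. MAN1A2, a mannosidase, averaged 0.51 (SE 0.054). Of 16 tested COPII accessory factors 3 rose and 6 fell in KMS-11 cells, 10 and 3 in KMS-12 cells, and 3 and 7 in RPMI8226. MIA2, a partner of the large-cargo receptor at ER exit sites, had 23.6 and 24.6 CPM with JQ1 against 97.7 and 115 CPM with DMSO in KMS-12, and its average log2 change was -1.68 (SE 0.061; edgeR quasi-likelihood, adjusted p by Benjamini-Hochberg = 4.80e-13). PDCD6, a calcium sensor that binds SEC31A, rose by 1.57 (SE 0.14) in KMS-11 and by 1.07 (SE 0.14) in KMS-12.

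Of 22 COPI accessory and p24 cargo genes 4 rose and 11 fell in KMS-11 cells, 10 and 4 in KMS-12 cells, and 3 and 10 in RPMI8226. TMED3, a p24 protein, fell by 0.86 (SE 0.063) in the average and ARF3, a small GTPase of the Golgi, rose by 0.66 (SE 0.061). Of 10 tested cargo receptors outside the 55, 2 rose and 4 fell in KMS-11 cells, 5 and 3 in KMS-12 cells, and 3 and 3 in RPMI8226. ERGIC1 averaged -0.57 (SE 0.055) and ERGIC2 -0.62 (SE 0.066). The 17 genes of the parallel routes that insert tail-anchored and multipass proteins gave 5 rises and 3 falls in KMS-11 cells, 5 and 2 in KMS-12 cells, and 3 and 3 in RPMI8226. UBL4A averaged -0.73 (SE 0.082) and EMC7 -0.62 (SE 0.073). The falls on that list, 17.6% in KMS-11, 11.8% in KMS-12 cells and 17.6% in RPMI8226, were no more frequent than among all genes. Among 9 tested transcription factors of the secretory program 1 rose and 4 fell in KMS-11 cells, 5 and 3 in KMS-12 cells, and 0 and 4 in RPMI8226. CREB3L4 fell by 1.20 (SE 0.11) in the average and PRDM1, which drives plasma cell differentiation, rose by 1.18 (SE 0.079). XBP1, the factor that induces much of the secretory machinery, named here after its values were seen, had 341 and 323 CPM with JQ1 against 194 and 196 CPM with DMSO in KMS-12 cells and rose by 0.77 (SE 0.14) there (-0.001 with library size alone), and had -0.12 (SE 0.13) in KMS-11 and -0.21 (SE 0.14) in RPMI8226.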

How the data were processed

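Total RNA was sequenced after removal of ribosomal RNA with a stranded kit, per the labels' protocols. The deposited table holds raw read counts per Ensembl gene ID, without normalization, per the values in the file; the submitters' processing notes name hg38, GRCh38.p13 and DESeq2. Which aligner and counter made them, and whether strand was used, is not stated in the sources at hand. Of the 60666 IDs 60437 (99.62%) were paired with a symbol, and positions and gene types come from GENCODE 29 (GRCh38); 19667 IDs had no reads.

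From these counts, genes with enough reads by edgeR's filter (minimum count 10, minimum total 15) were kept, 23493 in all. They were scaled by TMM and fitted in R 4.3.3 with edgeR 4.0.16 in 1 quasi-likelihood model of 6 group means (6 residual degrees of freedom), so all groups share an estimate of spread. P-values were adjusted by Benjamini-Hochberg over all genes tested, and a gene passed at an adjusted p under 0.05. The SE is the log2 change divided by the root of F. CPM values are TMM-scaled, and promoters are RefSeq's (GRCh38.p14). The edgeR fit was tested on simulated counts, for the average, for KMS-11 and for a difference of response between lines. Where few genes truly change, false calls took a larger share of the calls for KMS-11 or a difference between lines than the threshold states. The sums, ratios and promoter counts were not tested in this way. The alternatives tried: RLE scaling; library size on its own; TMM without very abundant gene classes, other filters, DESeq2 1.42.0, limma-voom (limma 3.58.1), a replicate block, a test against a fold of 1.5, each line alone and leaving out each library. Library size without MALAT1 and NEAT1 was added after the data were seen.

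Genes were named by a rule: per step the 3 members with the smallest adjusted p in the average, the 2 smallest for the response difference and the 2 smallest for the DMSO difference, every member called with a log2 change of at least 1 or called in opposite directions, and the 2 smallest of each other list; other names fill out the account of a step. The members and the lists were chosen with earlier results of these data known. Replicate libraries differed by more than sampling noise (chi-square per degree of freedom 5.74 to 23.5).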

Additional observations from a re-analysis of the deposited data

Results flagged for a closer look

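The genes below were marked because the size of their JQ1 response differed between KMS-11, KMS-12 and RPMI8226, by the F test for any difference of response in the edgeR quasi-likelihood fit with Benjamini-Hochberg adjustment over all genes. Of the 55 members 41 passed it with TMM scaling, beside 30.1% of all genes. With library size alone 35 passed, and with library size without MALAT1 and NEAT1 30 did. The share of all genes under those other scalings is not given, so these counts cannot be read against it. Of the 41, those named by the rule are given here. The adjusted p was SRP72 0.0127, SRP54 6.38e-05, SRP68 0.00124, SSR1 0.0280, SSR3 0.00499 and SEC63 0.0270. Further values were SEC61B 4.77e-06, SSR4 1.79e-05, SPCS2 0.0435, SPCS3 3.65e-05, SPCS1 2.24e-05 and STT3A 9.31e-05. Next, the adjusted p stood at OSTC 0.0126, RPN1 5.90e-05, DDOST 1.90e-07, STT3B 6.79e-06, RPN2 3.42e-05 and SEC24D 5.33e-07. For other members it came to SEC24A 4.58e-06, SEC13 0.00151, SEC31A 4.64e-07, SAR1B 0.0282, COPG1 0.00391 and COPA 5.50e-04. It was COPB1 4.61e-05, COPB2 5.02e-05, LMAN1 3.54e-04, KDELR1 3.17e-04, SURF4 1.07e-04 and KDELR2 2.87e-04 for another set. The remaining values were KDELR3 0.00218, SEC61G 0.00126, SSR2 3.17e-05, TRAM1 6.75e-05 and SEC23A 3.26e-05. With TMM scaling 39 of the 55 responded more positively in KMS-12 than in KMS-11 and 0 less (10.1% and 9.87% of all genes). With library size alone 20 did so more and 4 less (4.41% and 28.1%). Leaving out 1 library at a time, the call was lost in at least 1 fit for 8 of the 41, and among those named here for SRP72, SEC63, SSR1, SPCS2, SAR1B and OSTC. The adjusted p in edgeR then reached 0.0598 for SRP72, 0.0875 for SEC63, 0.106 for SSR1, 0.190 for SPCS2 and 0.147 for SAR1B, each in several fits, and 0.0921 for OSTC, in the fit without JQ1 replicate 1 of KMS-11.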

How the results depend on the processing

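The test against a fold of 1.5, which asks for more, no longer called 98 of 252 results on named members and turned 0. With library size alone, which rescales every line, 22 of the 252 passed the test that had not and 16 no longer passed. Under that scaling 31 turned direction. They were, on the log2 scale in KMS-12, SRP54 -0.13, SRP68 -0.36, SRP14 -0.24, SEC61B -0.36, SSR4 -0.096, SPCS3 -0.39, SEC11C -0.76, RPN1 -0.57, DDOST -0.12, RPN2 -0.43, SEC24D -0.76, SEC24A -0.44, SEC13 -0.71, SAR1B -0.51, COPA -0.085, COPB1 -0.15, COPB2 -0.14, SURF4 -0.38, KDELR2 -0.55, SSR2 -0.39, TRAM1 -0.18 and SEC23A -0.074. Averaged over the lines they were SRP54 -0.33, SRP68 -0.35, SRP14 -0.075, SPCS1 -0.28, STT3B -0.15, SEC31A -0.089, COPA -0.14, COPB1 -0.28 and COPB2 -0.31. Leaving MALAT1 and NEAT1 out of the library size turned SEC13 -0.25 and SAR1B -0.044 in KMS-12. A change of sign in which neither value passed the test is not counted. With library size alone the average had 0 members higher and 49 lower, KMS-12 had 2 and 41, and RPMI8226 had 0 higher. Without MALAT1 and NEAT1 the average had 4 higher and KMS-12 had 13 higher and 19 lower. Against a fold of 1.5 the average had 0 higher and 8 lower, KMS-11 had 18 lower, KMS-12 had 4 and 0, and RPMI8226 had 0 and 7. The 1 rise in RPMI8226 became 0 under RLE scaling, a mean of at least 10 CPM, DESeq2, limma-voom and the replicate block over all libraries. Step medians moved with library size alone. KMS-11 cells gave SRP -0.54, translocon -1.17, OST -1.08, COPII coat -0.43, COPI coat -0.42, receptors -1.30 and all members -0.78. KMS-12 cells gave SRP -0.72, translocon -0.44, signal peptidase -0.63, OST -0.43, COPII coat -0.44, COPI coat -0.42, receptors -1.16 and all members -0.52. The average of the lines gave all members -0.60. Without MALAT1 and NEAT1 they also moved. KMS-12 cells gave SRP -0.26, translocon 0.025, signal peptidase -0.17, OST 0.033, COPII coat 0.02, COPI coat 0.044, receptors -0.70 and all members -0.056. The average of the lines gave all members -0.36. A mean of at least 10 CPM, which tests fewer genes, gave other medians. KMS-12 cells gave signal peptidase 0.054, COPII coat 0.24 and receptors -0.54. KMS-11 cells gave receptors -0.68. RPMI8226 cells gave receptors -0.54. RLE scaling gave 0.34 for the COPII coat of KMS-12 cells. The cause was not tested.

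Leaving out 1 library at a time assumes that the lone library varies like the other groups. Members higher then lay between 0 and 1 for KMS-11, 0 and 1 for RPMI8226, and between 20 and 30 for KMS-12; members lower in RPMI8226 lay between 25 and 40. Step medians lay between -0.60 and -0.40 for translocon of RPMI8226, 0.14 and 0.27 for signal peptidase of KMS-12, -0.91 and -0.71 for OST of KMS-11, -0.24 and -0.093 for COPII coat of KMS-11, 0.30 and 0.37 for COPII coat of KMS-12, -0.28 and -0.073 for COPI coat of KMS-11, and -0.41 and -0.30 for receptors of KMS-12. DESeq2 left 247 of 252 results on named members as they were, and limma-voom 248.

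The main fit did not pair libraries by replicate number. Deviations of same-numbered JQ1 and DMSO libraries correlated at 0.153 for KMS-11, 0.032 for KMS-12 and 0.18 for RPMI8226 over 16949 genes. Over all 15 pairs of groups the correlation lay between -0.054 and 0.18. These values do not settle whether same-numbered libraries are paired. The replicate block over all libraries left 251 of 252 results as they were, and a replicate block within each line gave 1 member higher in KMS-11. Depth limits KDELR3 most, with 5 and 6 reads in the JQ1 libraries of KMS-11.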
